A study of Mus musculus with 2 samples.

Results

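The Schlafen genes were examined in RNA of whole colon from 2 genotypes of C57BL/6 mice, Villin-Cre and, as EP4 cKO, Villin-Cre; EP4flox/flox, both at 8 weeks of age per the methods, which addressed how loss of the prostaglandin receptor EP4 in the gut epithelium alters gene expression in the colon. Both genotypes carry Cre recombinase under the villin promoter, which is active in intestinal epithelial cells, so that in EP4 cKO mice the flanked stretch of Ptger4, which encodes EP4, is to be removed from the epithelium and kept in the stroma, muscle and immune cells of the same tissue. RNA of 3 pools of colon was combined for each genotype and hybridized with Cy3 to 1 Agilent array, so that no difference has a replicate check and every value describes these 2 arrays. The members were chosen by name, as the Slfn genes Slfn1, Slfn2, Slfn3, Slfn4, Slfn5, Slfn8 and Slfn9. All 7 were found, among 22909 genes, and they were read by 11 probes of 56593.

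Schlafen proteins are a family that has expanded in rodents and whose genes lie side by side on mouse chromosome 11. They are sorted by length into a short group (Slfn1, Slfn2), an intermediate group (Slfn3, Slfn4) and a long group (Slfn5, Slfn8, Slfn9), in which a helicase-like part is added behind the shared Schlafen core. Many are induced by interferons and by microbial products, the founding members were described as brakes on the growth of T cells, and several act on tRNA or ribosomes. In bulk tissue, as here, a change in the number of cells that carry a transcript and a change in the amount per cell cannot be told apart.

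The values are spot intensities scaled so that the trimmed mean of each array was 2500, and a log2 ratio is EP4 cKO over Villin-Cre. A probe counted as measured on an array where the scanner software called it well above background, which held for 25683 probes (45.4%) on the Villin-Cre-labelled array and 29177 (51.6%) on the EP4 cKO-labelled array. Where only 1 array measured a probe, the dim side was held at the lowest signal measured on that array (125 for Villin-Cre, 57.8 for EP4 cKO), or at the probe's own signal where that was higher, and the fold is given as "at least". The targeted gene was not lower by 2-fold. The brighter probe of Ptger4 read 6227 on the Villin-Cre-labelled array and 5661 on the EP4 cKO-labelled array, and the dimmer read 393 and 592, so the directions below rest on the labels of the arrays. Whether these probes lie inside the deleted part is not given in the sources used here. Among markers of cell types, 10 of 10 epithelial genes were measured on both arrays, with summed signals of 2405720 and 2807320. Fibroblast genes stood apart. Of these, 7 of 8 were measured on the Villin-Cre-labelled array and 3 on the EP4 cKO-labelled array, 7 of 7 with a value were more than 2-fold lower there, and their sum went from 14355 to 506. The part of this difference in the results below was not tested.

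Since several Schlafen genes were higher together, the sequences ahead of their starts are shown first, as the 250 bases before the annotated start in RefSeq (build GRCm38.p6), written 5′ to 3′ on the strand of the gene. Windows were given for 7 of 7 members, 8 in all because Slfn8 has 2 starts. The first set holds the members in which capitals mark the core of the interferon-stimulated response element, letters through which interferon-activated factors act (GAAA, any pair of letters and GAAA again, or TTTC, any pair and TTTC when read on the other strand).
Slfn5, chr11:82951852-82952101, plus strand: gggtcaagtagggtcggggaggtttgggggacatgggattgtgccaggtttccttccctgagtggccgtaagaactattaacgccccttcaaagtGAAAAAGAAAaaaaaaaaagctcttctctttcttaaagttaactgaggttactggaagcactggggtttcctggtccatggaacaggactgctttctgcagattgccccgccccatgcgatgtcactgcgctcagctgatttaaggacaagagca
Slfn9, chr11:82991831-82992080, minus strand: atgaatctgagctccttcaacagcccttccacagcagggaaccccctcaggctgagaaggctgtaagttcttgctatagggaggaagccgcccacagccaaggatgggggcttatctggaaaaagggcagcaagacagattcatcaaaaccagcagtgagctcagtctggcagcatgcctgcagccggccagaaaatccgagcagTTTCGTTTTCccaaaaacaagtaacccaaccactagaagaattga
Slfn8, first start, chr11:83020811-83021060, minus strand: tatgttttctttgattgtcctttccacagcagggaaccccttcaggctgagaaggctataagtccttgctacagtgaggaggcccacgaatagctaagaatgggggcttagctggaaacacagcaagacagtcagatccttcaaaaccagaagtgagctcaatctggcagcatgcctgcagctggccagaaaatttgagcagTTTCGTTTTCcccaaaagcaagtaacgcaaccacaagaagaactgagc

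In Slfn5 the core lay at positions -155 to -146 from the start, inside a stretch rich in A, in Slfn9 at -45 to -36 and in Slfn8 at -48 to -39. The window of the second Slfn8 start overlaps the first and held the same core at -136 to -127. The Slfn9 and Slfn8 windows were alike throughout, with 204 of 245 aligned bases identical (83.3%) and a longest shared run of 20 bases. Thus 3 of 7 members held the core, and by window 4 of the 11 windows of all Schlafen symbols. Of all mouse promoter windows of this length, 978 of 32851 held it (2.98%). The core did not go with the higher values. Of the 3 members, only Slfn5 was more than 2-fold higher, while Slfn9 stood at -0.13 by its brighter probe and the bound of Slfn8 at 0.05. Slfn2 (3.94), Slfn4 (3.87) and Slfn3 (a bound of 2.21) lacked the core. The gamma-activated site (TTCNNNGAA, its own reverse complement) was found in 0 members and in 2306 windows (7.02%).

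The second set holds the short and intermediate genes with a signal on both arrays. Capitals mark a run of 9 letters (ACTTCCTGG) that was noticed when the windows were compared in pairs, and so was chosen after they had been read.
Slfn2, chr11:83064862-83065111, plus strand: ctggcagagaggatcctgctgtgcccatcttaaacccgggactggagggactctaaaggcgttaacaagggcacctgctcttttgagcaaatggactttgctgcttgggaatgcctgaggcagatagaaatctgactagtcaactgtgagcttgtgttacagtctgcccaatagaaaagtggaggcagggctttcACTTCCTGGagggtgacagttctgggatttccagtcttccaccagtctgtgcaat
Slfn4, chr11:83174936-83175185, plus strand: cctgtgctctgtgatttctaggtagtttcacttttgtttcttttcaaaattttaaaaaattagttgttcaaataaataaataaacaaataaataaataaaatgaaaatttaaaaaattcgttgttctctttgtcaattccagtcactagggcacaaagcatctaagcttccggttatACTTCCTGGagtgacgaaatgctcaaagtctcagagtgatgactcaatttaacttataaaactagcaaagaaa

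The run lay at -55 to -47 in Slfn2 and at -73 to -65 in Slfn4. It was also present in the other short and intermediate genes, at -74 to -66 in Slfn1 and at -42 to -34 in Slfn3. On either strand (ACTTCCTGG or CCAGGAAGT), 230 of 32851 windows held it (0.7%), and these include the 4 Schlafen windows themselves. Slfn1 and Slfn4 shared 15 letters at this place (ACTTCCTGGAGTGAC). The core and the run did not occur together in any member. The genes are related by descent, so their windows are not independent of each other, and a match is a description of the letters and not of binding.

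**Figure D1:**
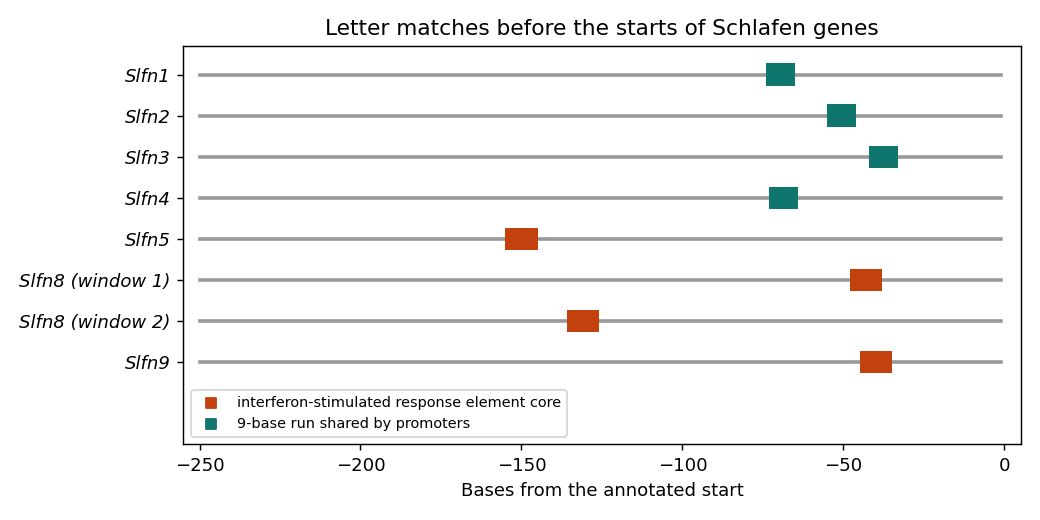
Positions of the 2 letter matches in the 250 bases before the start of each Schlafen gene (x axis, bases from the annotated start; each grey line is 1 window). Blocks of the interferon-stimulated response element core stand in Slfn5, Slfn8 and Slfn9, and blocks of the 9-base run in Slfn1, Slfn2, Slfn3 and Slfn4.

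Among the short Schlafen genes, Slfn2, which binds tRNA and protects it from cleavage and whose loss breaks the quiescence of T cells and monocytes, was far higher on the EP4 cKO-labelled array. Its only probe read 211 ± 38.7 on the Villin-Cre-labelled array and 3248 ± 325 on the EP4 cKO-labelled array (± is the error that the scanner software gives for the spot). Both signals were well above background and the intervals did not overlap. The log2 ratio was 3.94, or 15.4-fold, with an error of 0.30 from the 2 spot errors. Slfn1, the founding member, named for the growth arrest it causes in thymocytes, could not be followed. Its only probe was at 31.8 and 14.3, well above background on neither array, and it has no ratio.

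Both intermediate genes were higher on the EP4 cKO-labelled array. Slfn4, which is induced in activated macrophages and restrains myeloid development, read 306 ± 44.4 on the Villin-Cre-labelled array and 4474 ± 448 on the EP4 cKO-labelled array. This is a log2 ratio of 3.87, or 14.6-fold, with an error of 0.25, and it differed from that of Slfn2 by less than either error. Slfn3, which has been linked to enterocyte differentiation in rodents, was not well above background on the Villin-Cre-labelled array (34.1) and read 580 on the EP4 cKO-labelled array. Its signal was thus at least 4.62-fold higher there.

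The long genes differed among themselves. Slfn5, an interferon-induced nuclear protein, had 3 probes. The brightest read 29.7 on the Villin-Cre-labelled array, not well above background, and 2162 on the EP4 cKO-labelled array, at least 17.2-fold higher. The next read 27.7, not well above background, and 1374, with a bound of 3.45 on the log2 scale. Thus, both probes placed Slfn5 among the genes seen only on the EP4 cKO-labelled array. The last probe stood at 30.5 and 13.7 and was well above background on neither array, so the probes of Slfn5 did not all read it.

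Slfn8, a long member studied in T cell development, was at the edge of detection. One probe read 33.8 on the Villin-Cre-labelled array, not well above background, and 130 on the EP4 cKO-labelled array, just past the lowest signal measured on the other array, so that its bound was only 1.04-fold. The other probe was well above background on neither array (31.3 and 13.9). These values set no size for Slfn8.

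Slfn9, the neighbour of Slfn8, gave different values by probe. The brighter probe read 2116 ± 214 on the Villin-Cre-labelled array and 1928 ± 193 on the EP4 cKO-labelled array, a log2 ratio of -0.13 with an error of 0.21. That difference was smaller than the spot errors, and its sign turned with the scaling. The ratio was 0.02 when arrays were scaled to the 75th percentile, and the unscaled intensities were 613 and 718. The dimmer probe, annotated to the same RefSeq transcript, read 210 ± 37.8 and 629 ± 64.5, a log2 ratio of 1.58 with an error of 0.30. The 2 probes therefore differed by more than their errors, and the sequences of the probes are not given in the files used here, so it was not tested which of them also reads a related gene. The mean of both probes gave 0.72.

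**Figure D2:**
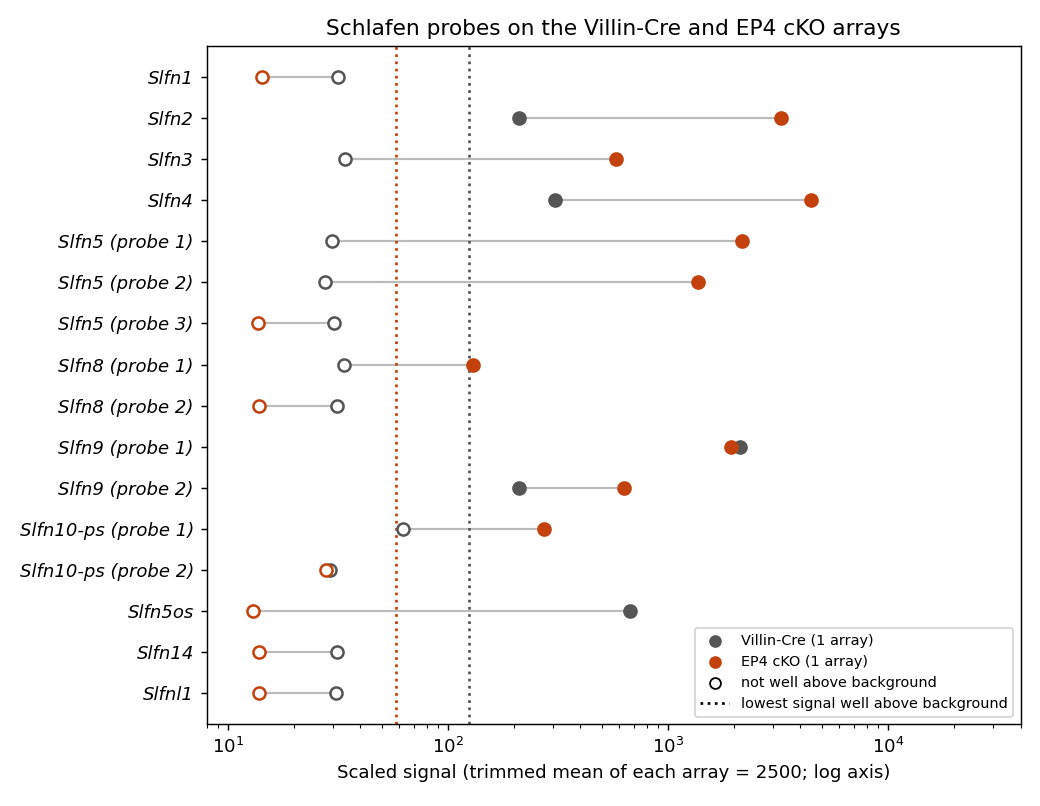
Scaled signal of every Schlafen probe (x axis, log scale, trimmed mean of each array set to 2500) on the Villin-Cre-labelled array (grey) and the EP4 cKO-labelled array (orange), 1 point per array; open points are not well above background and dotted lines mark the lowest measured signal of each array. Slfn2 and Slfn4 lie apart on both arrays (211 to 3248 and 306 to 4474), Slfn3 and 2 probes of Slfn5 pass from open to filled points, and the brighter probe of Slfn9 stays in place.

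By probe, 4 of the 11 member probes were well above background on the Villin-Cre-labelled array and 8 on the EP4 cKO-labelled array, and no probe was measured on the Villin-Cre-labelled array only. Of the 8 with a value, 6 were more than 2-fold higher on the EP4 cKO-labelled array and 0 were more than 2-fold lower, where over all probes with a value these shares were 3.99% and 8.58%. By gene, each represented by its brightest measured probe, 6 of 7 members had a value. More than 2-fold higher were 4 (Slfn2, Slfn3, Slfn4 and Slfn5), against 717 of 14679 genes (4.88%), and more than 2-fold lower were 0, against 1171 (7.98%). The median log2 ratio of the 6 was 3.04 and that of all genes -0.10. The same 4 genes were more than 3-fold higher, a size reached by 325 genes (2.21%), and no further member was past 1.5-fold, which 1447 genes were (9.86%).

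These counts mix 2 kinds of value. Slfn3, Slfn5 and Slfn8 have a value only because the EP4 cKO-labelled array measured them, and among the 1502 genes of that kind 198 (13.2%) had a bound above 2-fold, as did 2 of these 3. With both arrays measured, 2 of 3 members were more than 2-fold higher, with a median of 3.87, against 519 of 12808 genes (4.05%) and a median of -0.15. None of the 3 was more than 2-fold lower, against 802 genes (6.26%). In the order of the 12808 genes measured on both arrays, from the highest log2 ratio, Slfn2 stood at place 36, Slfn4 at 39 and Slfn9 at 6222. The bounds of Slfn5, Slfn3 and Slfn8 are set by the lowest measured signal and give them no place. Slfn2 and Slfn4 were next to each other among the members and did not differ beyond their errors. Among the genes nearest in log2 ratio to Slfn4, the member of highest mean signal measured on both arrays, were H2-Q5, an MHC class I gene with close paralogs (3.92), and Fam43a (3.81), a likeness over 2 arrays.

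**Figure D3:**
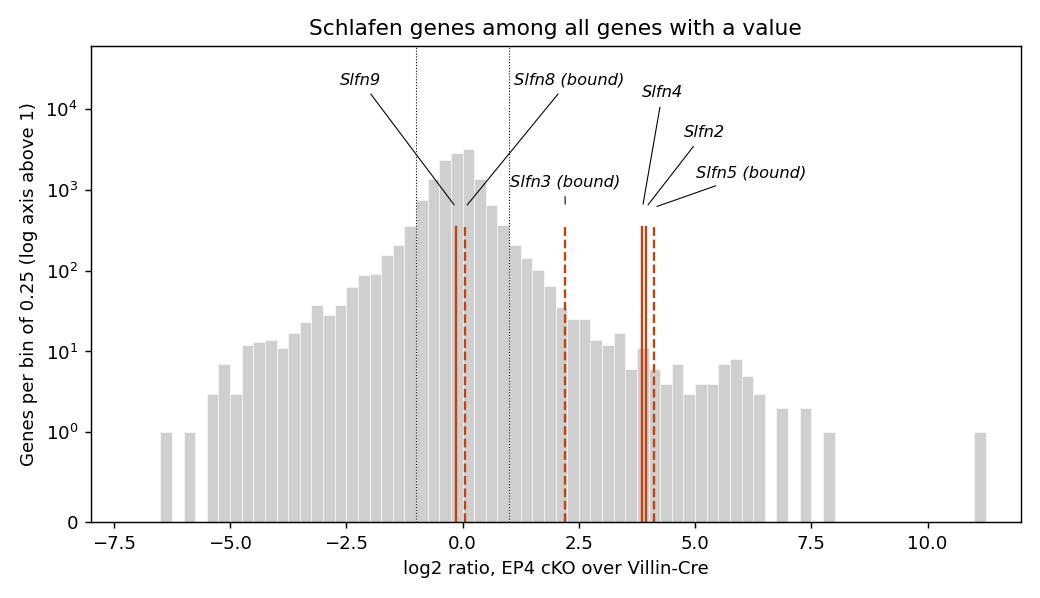
Number of genes (y axis, log scale above 1) by log2 ratio of EP4 cKO over Villin-Cre (x axis, bins of 0.25) for the 14679 genes with a value, with each Schlafen gene as an orange line (solid, measured on both arrays; broken, a bound) and 2-fold as dotted lines. Slfn2, Slfn4 and the bounds of Slfn5 and Slfn3 lie in the sparse upper tail, while Slfn9 and the bound of Slfn8 lie in the bulk.

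Values along the stretch of chromosome 11 that holds the family differed from gene to gene. In the gene order of RefSeq the symbols run Slfn5os, Slfn5, Slfn9, Slfn8, Slfn10-ps, Slfn2, Slfn1, Slfn4, Slfn3 and Slfn14, and of the genes between Slfn5 and Slfn3, Slfn9 was near 0 by its brighter probe while Slfn8 and Slfn1 gave no size. Slfn10-ps, named as a pseudogene, read 62.7 on the Villin-Cre-labelled array, not well above background, and 272 on the EP4 cKO-labelled array, at least 2.17-fold higher by one probe, while its other probe was dim on both arrays (29.1 and 27.9). With normexp background correction and quantile normalization its bound was a log2 of 0.84, under 2-fold. Slfn14, a ribosome-bound endoribonuclease, was well above background on neither array (31.3 and 13.9). Slfnl1, a Schlafen-like gene on chromosome 4, was likewise dim (30.9 and 13.8).

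The noncoding gene Slfn5os was the only Schlafen symbol with a value more than 2-fold lower. It lies on the minus strand and its span overlaps Slfn5, which is on the plus strand. Its probe read 675 ± 73.3 on the Villin-Cre-labelled array and 13.0 on the EP4 cKO-labelled array, not well above background, and was at least 11.7-fold lower there. The bound stayed below with normexp and quantile normalization (log2 -1.49). Whether these probes read 1 strand only is not given in the sources used here, so that the opposite directions of Slfn5 and Slfn5os cannot be assigned to strands.

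The genes reported here from either side of the family differed by less than 2-fold by the probe that stands for them, or could not be measured. Nle1, a ribosome assembly factor, read 950 and 922, a log2 ratio of -0.04. Ap2b1, a subunit of the clathrin adaptor, read 4319 and 2393 by its brighter probe (log2 -0.85) and 1624 and 2108 by its other probe (log2 0.38). Fndc8, Unc45b and Rasl10b were well above background on neither array.

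**Figure D4:**
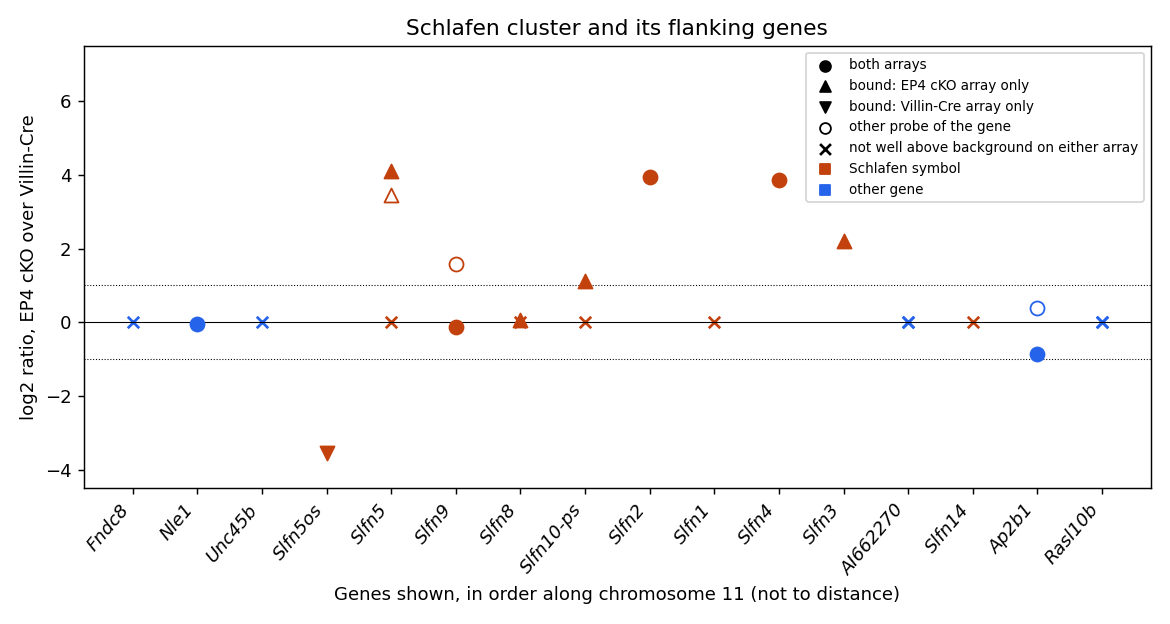
Log2 ratio of EP4 cKO over Villin-Cre (y axis) for each probe of the Schlafen genes on chromosome 11 (orange) and of the flanking and intervening genes shown (blue), in chromosomal order and not to distance; triangles are bounds, open symbols are further probes of a gene, and crosses, drawn at 0, are probes without a value. Slfn5, Slfn2, Slfn4 and Slfn3 stand highest, the second probe of Slfn9 (1.58) and Slfn10-ps (1.12) lie between them and 0, Slfn5os lies below, and of the flanking genes Nle1 lies near 0 and Ap2b1 at -0.85.

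Interferon signaling lies upstream of many Schlafen genes, and a list of its ligands, receptors, kinases, factors and inhibitors was read on the same arrays. Of 25 genes, 23 had a value, of which 9 were more than 2-fold higher on the EP4 cKO-labelled array and 1 was lower, with a median log2 ratio of 0.45, beside 4.88% and 7.98% of all genes. The higher genes were transcription factors, feedback inhibitors and 1 ligand, and of the receptors and kinases Jak2, at a log2 ratio of 0.86, lay closest below 2-fold. With scaling to the 75th percentile or loess 10 were higher, where 6.42% and 7.79% of all genes were. With E1A scaling 17 were higher, where 36.5% of all genes were. With normexp, loess or E1A scaling 0 were lower.

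Of the ligands, Ifnb1, the type I interferon, read 181 on the Villin-Cre-labelled array and 11.5 on the EP4 cKO-labelled array, not well above background and at least 3.14-fold lower. Ifng, the type II interferon, read 149 and 177, and Ifnl3, a type III interferon, 281 and 710, or 2.53-fold higher. The ligand signals were all low, and Ifna4 was well above background on neither array. The 6 receptor genes lay between a log2 ratio of -0.55 (Ifnar1) and 0.46 (Il10rb). The kinases that receptors use stood at 0.17 (Jak1), 0.86 (Jak2) and -0.31 (Tyk2).

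Of the 7 factors that carry the signal to the nucleus, 5 were more than 2-fold higher. Stat2, which carries type I and type III signals, had a log2 ratio of 1.88, and Irf9, which binds DNA with it, of 1.75. Irf7, the factor that amplifies interferon production, read 37247 and 252885, or 6.79-fold higher, and Irf1 had a log2 ratio of 1.36. Irf3, which is activated by phosphorylation, stood at -0.35 and Stat3 at 0.15. Among the feedback inhibitors, Socs1 read 361 and 1802, or 4.99-fold higher, and Socs3 had a log2 ratio of 1.69. Usp18, which blocks the type I receptor, read 136, not well above background, and 5807, at least 42.7-fold higher. Ptpn2 stood at -0.08.

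Schlafen genes are known from T cells and myeloid cells as well as from epithelium, so marker genes of these cells are given beside them. The share of all genes past 2-fold was 4.88% upwards and 7.98% downwards, and these lists are short. T cell genes had summed signals of 8342 on the Villin-Cre-labelled array and 8761 on the EP4 cKO-labelled array, and of 10 with a value, 2 were more than 2-fold higher (Cd3g, 208 to 504, and Cd6, 194 to 476). Others of the list ran differently, with Cd3d at 1245 and 722, Cd3e at a log2 ratio of -0.10 and Lck at -0.03. Genes of NK and cytotoxic cells summed to 2709 and 8655, and of 6 of 8 with a value, 3 were higher (Gzma, 476 to 5795, Nkg7, 456 to 1218, and Gzmb, 42.0, not well above background, to 572) and 1 was lower (Prf1, 1269 to 284). Ncr1 and Eomes, which define NK cells, were well above background on neither array.

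Monocyte and macrophage genes summed to 63445 and 88260, and of 6 of 10 with a value, 2 were more than 2-fold higher, both as bounds (Mrc1, at least 4.31-fold, and Cx3cr1, at least 2.04-fold). Adgre1, Lyz2, Ccr2 and Fcgr1 of this list were well above background on neither array, and Csf1r read 4874 and 2817. Itgam alone made up 77.8% of this sum on the Villin-Cre-labelled array. Neutrophil genes summed to 109286 and 84949, with 2 of 5 higher (S100a9, 289 to 689, and S100a8, at least 2.83-fold), but 97.4% of that sum on the Villin-Cre-labelled array was Csf3r alone (106452 to 81629). B and plasma cell genes summed to 559 and 694, with 0 of 4 past 2-fold, and smooth muscle genes to 33033 and 47416, with 0 of 6 higher and 1 lower (Cnn1, 479 to 72.3). The epithelial list held 1 gene past 2-fold (Krt20, 146575 to 510711). The log2 ratio of Gzma was 3.60. Over the other processing choices the number more than 2-fold higher ran from 0 (normexp) to 6 in the T cell list. In the monocyte and macrophage list it ran from 0 (probes measured on both arrays) to 4. It ran from 0 to 3 in both the B and plasma cell and the smooth muscle lists. In the NK and cytotoxic list it ran from 2 to 5 and in the epithelial list from 1 to 6. Each of these highest counts came with E1A scaling, where 36.5% of all genes were more than 2-fold higher. The neutrophil list ran from 1 to 3, highest with no filter on dim probes. The part of any of these cells in the Schlafen values was not tested.

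The 4 high Schlafen genes kept their call under every processing choice in which they had a value. Against the scaling used, the median of all genes moved by 0.10 with the 75th percentile, with normexp and quantile normalization and with a trimmed mean over all spots, by 0.13 with loess and by 0.93 with the E1A control spots. The split of all genes past 2-fold moved with it, from 717 higher and 1171 lower to 942 and 921 (75th percentile), 605 and 394 (normexp), 1144 and 728 (loess), 895 and 966 (all spots) and 5353 and 352 (E1A spots). The ranges cover these scalings and the choices of dim probes and of the probe that stands for a gene. Slfn2 ranged from 3.08 to 4.94 and Slfn4 from 3.35 to 4.87. Where they could be given, Slfn3 ranged from 1.65 to 4.09 and Slfn5 from 3.12 to 6.18. The upper ends of Slfn3 and Slfn5 come from the choice without a filter on dim probes. There the Villin-Cre signal was not well above background, so these ends set no size. Without that choice the highest were 3.21 and 5.11, both with E1A scaling. With no filter, 1172 of 22909 genes were higher and 7253 lower. Slfn3 and Slfn5 have no value where both arrays must measure a probe. Slfn8 ranged from 0.05 to 1.94, past 2-fold with E1A scaling and with no filter on dim probes, and Slfn9 from -0.13 to 0.87.

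**Figure D5:**
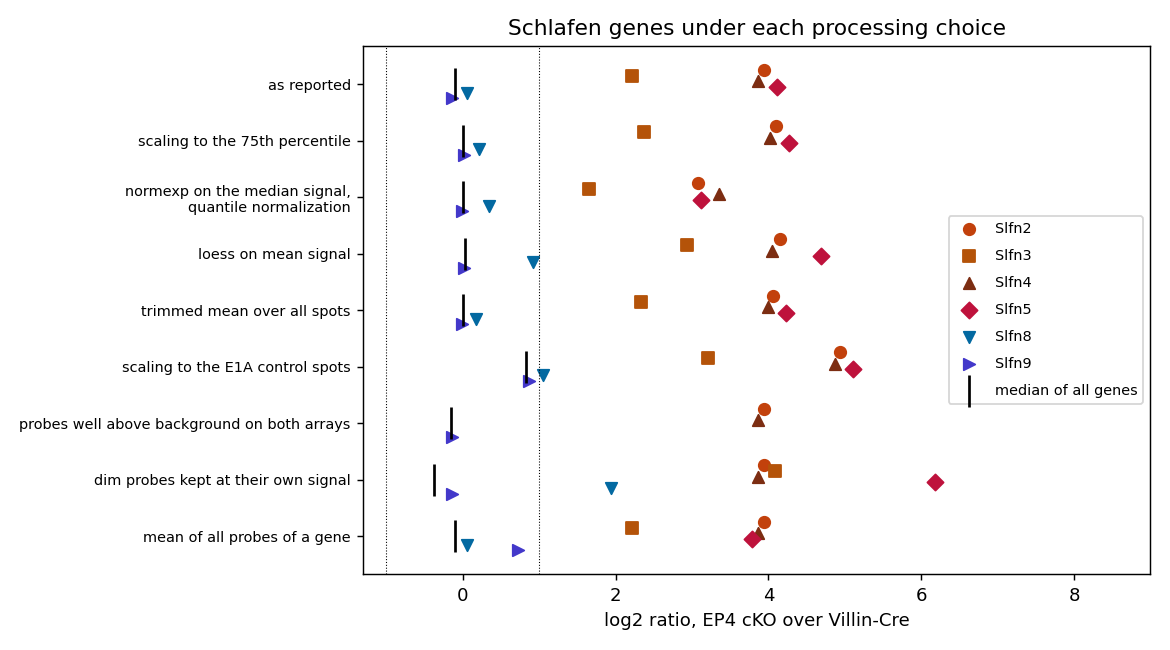
Log2 ratio of EP4 cKO over Villin-Cre (x axis) of the 6 Schlafen genes with a value under the reported setting and 8 other processing choices (y axis), with the median of all genes as a black bar and 2-fold as dotted lines; Slfn1 is not drawn. Slfn2, Slfn3, Slfn4 and Slfn5 stay right of 2-fold wherever they have a value, with all genes shifted by 0.93 under E1A scaling, and Slfn9 stays near the median of all genes except where its probes are averaged.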

How the data were processed

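RNA of whole colon was read on 2 Agilent SurePrint mouse arrays with 1 colour (Cy3), 1 Villin-Cre and 1 EP4 cKO, each sample mapped to its genotype by the labels. The methods state n = 3 for either genotype where the labels describe 3 pools combined, and no further array was analysed here. The authors deposited what the scanner software wrote (Feature Extraction 12.0.3.1 by the file headers, 11.5.1.1 by the submitters' processing notes). The deposited intensities used here are processed signals per spot, from which that software had subtracted the background and in which it had set low values to a small number above 0, so that values below the lowest measured signal have no order. The deposited intensities of the signal and background medians served the normexp alternative, and the spot errors are those of the software. The 2-fold call and the scaling to a trimmed mean of 2500 (2% of probes left out at each end) follow the methods of the study and were repeated here, by factors of 3.45 (Villin-Cre) and 2.68 (EP4 cKO).

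Controls and outlier spots of either array (147 and 126) were left out, and spots of a probe were averaged. Each Schlafen probe had 1 spot. No spot was saturated. Probes were named by RefSeq accession through the gene table of GRCm38.p6, where 32989 of 56593 matched. Coordinates are those of the RefSeq promoter windows only. A gene is its measured probe of highest mean signal, and a bound not above 1 was counted as a log2 ratio of 0. Among 279 probes with 8 to 10 spots the median SD of the log2 ratio was 0.035, and 0.15 in the 11 of them with a signal under 1000 on the dimmer array. This covers spots of 1 hybridization and not mice. No test was made and no p-value is given, since each genotype has 1 array.

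The members and gene lists were chosen with earlier results of these data known. Named are all Schlafen symbols, Ptger4, 3 genes on either side of the family, the 3 genes nearest in log2 ratio to the brightest member, and, for a list, at most 3 genes of largest difference in the direction of its median. The interferon genes are given by role as the rest of their list, and other marker genes, Cdkn1a and Klf4 were named after their values were seen. Motif letters were searched on both strands of 32851 RefSeq promoter windows of 250 bases. Alternatives were 75th percentile scaling, normexp (offset 50) on the median signal with quantile normalization, loess (span 0.3), a trimmed mean over all spots, E1A spots, both-array probes, all probes whatever their signal, 3-fold and 1.5-fold as thresholds, and a gene's mean over its probes. The steps were tested on simulated data. Software was R 4.3.3 (limma 3.58.1) and Python 3.11.15 (matplotlib 3.10.9, statsmodels 0.14.6, pandas 2.3.3, numpy 2.4.6). The values of some single genes of these lists are left out. Proteins of the members and the other experiments of the study were not analysed here.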

Additional observations from a re-analysis of the deposited data

How the results depend on the processing

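The median log2 ratio of the Schlafen genes with a value, 3.04 as reported, was 2.36 with normexp and quantile normalization, 3.49 with loess, 4.04 with E1A scaling, and 3.87 both among probes measured on both arrays and with no filter on dim probes. The number more than 2-fold higher, 4 as reported, was 2 among probes measured on both arrays, where Slfn3, Slfn5 and Slfn8 have no value. The number more than 2-fold lower, 0 as reported, was 1 without the filter on dim probes, when Slfn1 is read below background on both arrays. Without that filter 7253 of 22909 genes (31.7%) were lower and 1172 (5.12%) higher, with a median of all genes of -0.37. The other 21 values of the Schlafen counts and the Schlafen median under the alternatives stayed within 1.5 times or within the scanner error of 0.28. No value that was past 2-fold changed its direction. No paired analysis was possible because each genotype has 1 array, and no sample could be left out. Signal over background limits Slfn1, Slfn8 and Slfn14, and the number of arrays limits every value. Cross-reading between related Schlafen genes was not tested.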

Other observations

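Other lists with a bearing on known Schlafen functions were read on the same arrays, where the share of all genes past 2-fold was 4.88% upwards and 7.98% downwards. Genes of tRNA cleavage and protection, on which Slfn2 acts, had a value for 11 of 12, with 4 more than 2-fold higher on the EP4 cKO-labelled array, 0 lower and a median log2 ratio of 0.43. The 4 were angiogenins, secreted ribonucleases of which several defend the gut against microbes. Ang4 read 1266 and 197441, a log2 ratio of 7.28, Ang6 4611 and 340386 (6.21), Ang2 681 and 43323 (5.99), and Ang 2152 and 60401 (4.81). These are paralogs, and signal shared between their probes cannot be told apart here. Away from them the list lay between Tsen34, a subunit of the tRNA splicing endonuclease (-0.81), and Trdmt1, a tRNA methyltransferase (0.80), and Rnh1, the inhibitor of angiogenins, read 6461 and 7699.

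Genes of cell quiescence and growth arrest, the state that Slfn2 maintains in T cells, had a value for 15 of 15, with 0 higher, 1 lower and a median of -0.09. Klf2, a factor of resting T cells and of endothelium, read 6436 and 2032, or 3.17-fold lower. That call was lost with E1A scaling, where 0 genes of the list were lower. Btg2 had a log2 ratio of -0.68 and Foxo3 of -0.39, while Cdkn1a stood at 0.86 and Klf4 at 0.49. Genes of enterocyte differentiation, with which Slfn3 has been linked, had a value for 11 of 13, with 1 higher, 1 lower and a median of 0.28. Krt20, a keratin of surface cells, was 3.48-fold higher, the transporters Slc5a1 and Slc2a5 each had a log2 ratio of 0.54, and Anpep, a brush border peptidase, read 3856 and 1859, or 2.07-fold lower, a call lost under each of the 5 other scalings (75th percentile, normexp, loess, all spots and E1A), where 0 genes of the list were lower. Under other scalings and filters the number of genes higher ran from 4 to 8 for tRNA cleavage and 0 to 6 for quiescence. For enterocyte differentiation it ran from 1 to 7. Each number was highest with E1A scaling, where 36.5% of all genes were higher.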
